A study of Homo sapiens with 6 samples.

Results

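The genes described here drive mitosis and build the spindle. They are 55 of the 20332 genes in the counts table, chosen by symbol with earlier results of these data known. The list holds mitotic kinases and cyclins, spindle checkpoint proteins, kinesins, kinetochore proteins and condensin subunits that cells make mainly in G2 and M phase. RNA came from Huh-7, an established human hepatocellular carcinoma cell line. In 3 samples the cells carried a stable lentiviral overexpression of RAC3, a small GTPase of the Rac subfamily, and in the other 3 they were the corresponding negative controls, which the labels give as WT. The sources used here do not say whether the stable cells were 1 clone or a pool, nor which promoter drove RAC3. The genotype labels of RAC3 samples 2 and 3 name RAC4 and RAC5, while their titles name RAC3. Polyadenylated RNA was sequenced, and the authors' table held raw counts and FPKM per sample.

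A cell enters mitosis when CDK1, bound to cyclin A or cyclin B, phosphorylates proteins that condense the chromosomes, dissolve the nuclear envelope and reorganise microtubules into a bipolar spindle. The spindle checkpoint holds the cell there until every kinetochore is attached, after which the anaphase-promoting complex with CDC20 marks cyclin B and securin for destruction. Most of the genes for these proteins are switched on together late in the cycle, so their joint RNA level is widely read as a proliferation signature, in liver cancer as in other tumours.

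RAC3 itself (ENSG00000169750, chromosome 17, 82031624 to 82034204) had 35.6, 31.4 and 32.8 normalised CPM in negative controls 1 to 3 and 233, 239.6 and 225 in RAC3 samples 1 to 3, so RAC3 samples 2 and 3 carried RAC3 RNA at about the level of sample 1. Its log2 fold change of 2.81 (SE 0.0574, adjusted p = 9.6e-18) was far beyond the spread between samples. Totals lay between 13855762 and 18199888 counts per sample, and each of the 55 genes had between 187 and 12870 counts in every sample. The 10 hepatocyte markers summed to between 6551 and 6641 normalised CPM in the controls, against between 5964 and 6524 with RAC3, and none was at 0. Of other cell types, the 4 leukocyte markers summed to between 6.97 and 8.79 against between 9.29 and 12.3, most of it CD68, with CD3E at 0 in RAC3 samples 2 and 3, and the 4 endothelial markers to between 2.53 and 3.15 against between 2.70 and 3.77, with KDR at 0 in 5 of 6. The 5 fibroblast markers summed to between 190.8 and 205.6 against between 209.4 and 220.9, nearly all of it LUM and COL1A1. DCN stayed under 0.25 in every sample. The sums hide opposite moves. LUM lay between 145.9 and 162.5 in the controls and between 172.2 and 185.4 with RAC3. COL1A1 lay between 36.5 and 39.3 against between 32.6 and 33.6. At an adjusted p below 0.05 in edgeR, 3 of the 10 hepatocyte markers were higher and 3 lower, against 13.3% and 15.3% of all genes tested. The part of these markers in the results below was not tested.

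The mitotic genes were higher with RAC3 overexpression in a broad but shallow way. Of the 55, all of which passed the filter on low counts, 29 were higher (52.7%) and 1 was lower, CDC25B (1.82%), at an adjusted p below 0.05 in edgeR's quasi-likelihood test across all 12941 genes tested. Over all genes tested 13.3% were higher and 15.3% lower. Scaled by library size alone, the counts were 37 and 0, against 20.2% and 10.7% of all genes. The median log2 fold change of the 55 was 0.18, a median rise of 13.0% over the control level, and the values ran from -0.13 for CDC25B to 0.50 for HMMR. Over all genes tested the median was 0.0036, and over the 8003 genes with a mean count at or above that of the lowest mitotic gene it was 0.0044. The fold change was above 0 on the log2 scale for 47 genes and below 0 for 8. All 3 RAC3 samples lay above all 3 controls for 37 genes and below them for 2, CDC25B and AURKB, against 20.9% and 21.6% of all genes tested.

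No mitotic gene passed the thresholds of the study, a fold change above 1.5 with an unadjusted p below 0.05, by edgeR, DESeq2 or limma-voom, while 605 of the 12941 genes tested (4.68%) did by edgeR. The largest fold change was 1.42, for HMMR. With a fold of 1.2 in place of 1.5 the count was 16, against 20.5% of all genes tested. The 55 genes together took 0.733%, 0.771% and 0.759% of all counts in the negative controls 1 to 3 and 0.880%, 0.839% and 0.848% in the RAC3 samples. RAC3 sample 1 was the highest and negative control 1 the lowest of the 6 samples. In bulk RNA, more cells in G2 or M phase and more of this RNA per cell cannot be told apart.

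**Figure D1:**
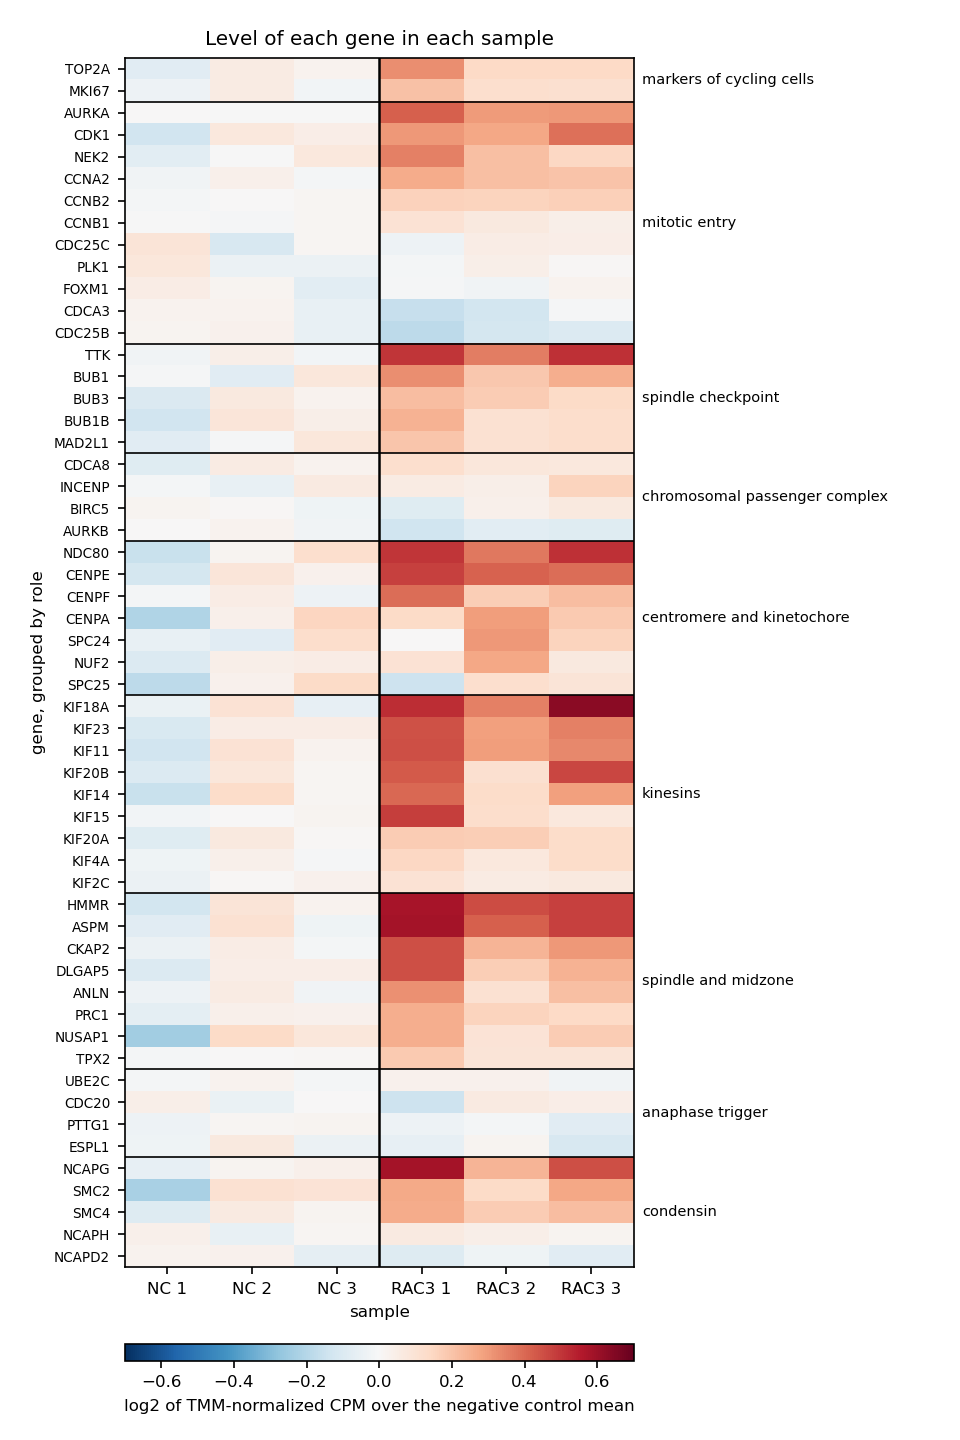
Heat map of the 55 mitotic genes (rows, by role) in the 6 samples (columns). Colour gives the log2 of the normalised CPM over the mean of the 3 negative controls, red above and blue below it. The kinesin, spindle and midzone rows are mostly above the control mean in all 3 RAC3 samples, while the anaphase trigger rows stay near it.

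The rise was uneven, and it ran with base composition. Across the 55 genes, Pearson's r between the GC content of the longest annotated transcript and the log2 fold change was -0.78 (Spearman's coefficient -0.81), and across 12863 genes tested with a GC value it was -0.42 (Spearman's coefficient -0.51). These are descriptions across genes that share the same 6 libraries, and genes are not replicates. The 29 higher genes had a median GC content of 40% (34.2% to 48.4%) and the other 26 one of 50.2% (38.8% to 59.6%). Of the 16 mitotic genes below 40% GC, 14 were higher, against 31.5% of all 2096 genes of that band. The 16 had a median of 0.33 on the log2 scale beside 0.16 for the band. Of the 14 at 50% GC or above, 1 was lower and 13 did not pass. Of all genes between 50% and 55% GC, 4.97% were higher and 17.6% lower, and at 55% or above 2.07% and 32.9%.

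The libraries differed in the same way. In RAC3 sample 1, genes under 45% GC had a median of 0.11 above their mean over the samples on the log2 scale and genes at 55% GC or above -0.13, and in negative control 1 the medians were -0.10 and 0.12. The other 4 libraries lay between these on the side of their group. When each library's trend with GC content was removed, 24 of the 55 genes were higher (43.6%) and 0 lower, against 10.5% higher and 10.4% lower of all genes, and the median log2 fold change was 0.13. Of the 29 genes, 19 remained higher and 10 did not pass: TOP2A, CCNB2, NEK2, BUB3, KIF14, KIF20B, DLGAP5, ANLN, SMC2 and SMC4. The 5 genes PLK1, FOXM1, INCENP, CDCA8 and CDC20, of 51.4% to 59.6% GC, passed only then. Whether GC content moved with the libraries or with RAC3 cannot be told apart, since all 3 libraries of a group lay on the same side.

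**Figure D2:**
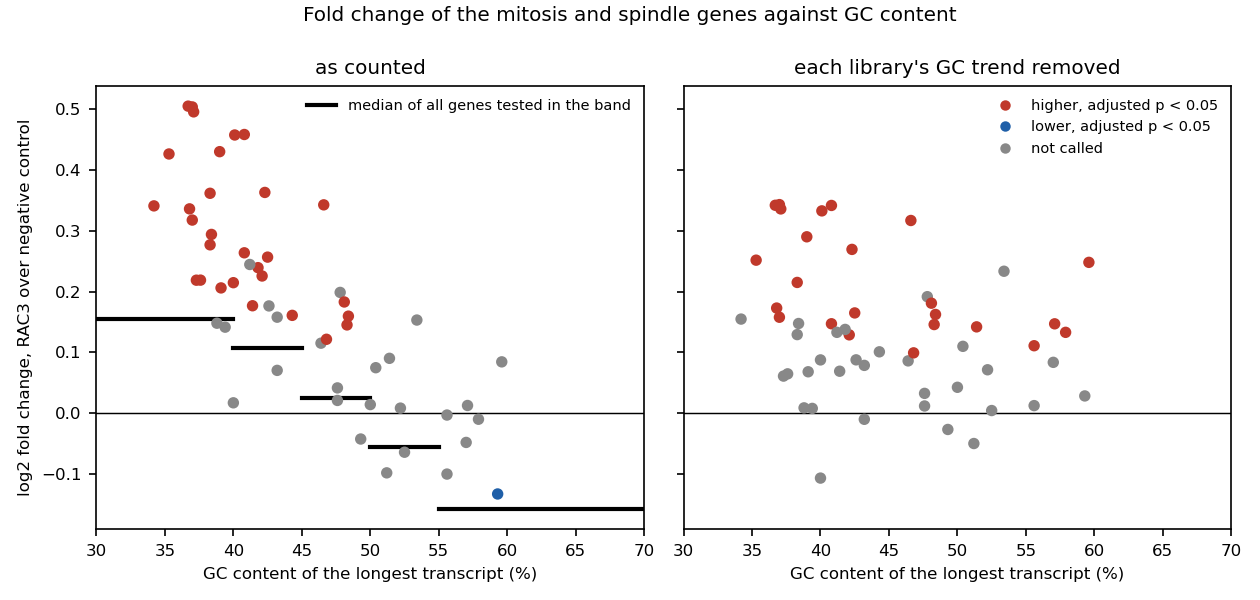
GC content of the longest transcript (x axis, percent) against the log2 fold change, RAC3 overexpression over negative control (y axis), for each of the 55 mitotic genes, coloured by call. The left panel shows the values as counted, with the median of all genes tested in each GC band as a horizontal line (the outer bands are drawn from 30% and to 70%), and the right panel those after each library's GC trend was removed. The slope on the left, where the genes at 50% or above lie between -0.13 and 0.15, is flatter on the right.

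Most promoters of these genes held 2 motifs that the choice by symbol did not use. Late cell cycle promoters often carry the cell cycle genes homology region (CHR, here TTTGAA or TTCGAA), where the DREAM complex represses in resting cells and the MYBL2 and FOXM1 complexes activate in G2, and CCAAT boxes, which NF-Y binds. RefSeq windows on GRCh38.p14 from 250 bases before to 50 after the start were matched by symbol for 48 of the 55 genes. AURKA, FOXM1, BUB3, TTK, BIRC5, TPX2 and UBE2C had no entry. Searched on both strands, a CHR match was in at least 1 window of 37 genes (77.1%) against 19.5% of all genes with an entry, a CCAAT match in 37 (77.1%) against 39.7%, and both in 1 window in 29 (60.4%) against 7.85%. Per window of 300 bases, 39 of 59 windows (66.1%) held a CHR match, against 16.4% of all 35116.

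Shown here are the 150 bases before the start of 4 genes that were higher (HMMR, ASPM, KIF18A and KIF11) and of 4 that were not (PLK1, CDC20, CDCA8 and ESPL1), because all hold both motifs although the calls as counted differ. With the GC trend removed PLK1, CDC20 and CDCA8 were called higher too, and ESPL1 was not. The starts are those of RefSeq and can lie inside the GENCODE gene span, as for HMMR. Each reads 5′ to 3′ on the strand of its gene, and capitals mark the matches TTTGAA or its reverse complement TTCAAA and CCAAT or its reverse complement ATTGG. The stretches are chr5:163460482-163460631, plus strand (HMMR), chr1:197146670-197146819, minus strand (ASPM), chr11:28108157-28108306, minus strand (KIF18A), chr10:92592980-92593129, plus strand (KIF11), chr16:23678739-23678888, plus strand (PLK1), chr1:43358831-43358980, plus strand (CDC20), chr1:37692366-37692515, plus strand (CDCA8) and chr12:53268149-53268298, plus strand (ESPL1).
HMMR: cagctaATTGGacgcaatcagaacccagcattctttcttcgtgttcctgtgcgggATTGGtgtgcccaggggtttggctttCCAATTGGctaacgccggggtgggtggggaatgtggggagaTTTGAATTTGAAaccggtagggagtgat
ASPM: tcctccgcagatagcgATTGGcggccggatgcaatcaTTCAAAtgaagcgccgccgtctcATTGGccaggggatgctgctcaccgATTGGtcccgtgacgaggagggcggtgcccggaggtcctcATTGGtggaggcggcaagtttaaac
KIF18A: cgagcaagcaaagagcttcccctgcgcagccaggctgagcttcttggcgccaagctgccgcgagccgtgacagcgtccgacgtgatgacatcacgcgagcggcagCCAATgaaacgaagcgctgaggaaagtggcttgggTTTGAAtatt
KIF11: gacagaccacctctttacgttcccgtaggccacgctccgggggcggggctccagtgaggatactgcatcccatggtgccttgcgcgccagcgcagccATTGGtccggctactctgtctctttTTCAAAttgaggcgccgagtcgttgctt
PLK1: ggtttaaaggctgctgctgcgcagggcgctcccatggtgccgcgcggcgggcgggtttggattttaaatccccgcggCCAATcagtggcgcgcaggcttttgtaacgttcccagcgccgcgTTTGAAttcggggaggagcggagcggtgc
CDC20: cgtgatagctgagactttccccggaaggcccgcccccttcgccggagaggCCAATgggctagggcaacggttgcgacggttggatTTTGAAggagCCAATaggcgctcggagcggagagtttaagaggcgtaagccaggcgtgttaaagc
CDCA8: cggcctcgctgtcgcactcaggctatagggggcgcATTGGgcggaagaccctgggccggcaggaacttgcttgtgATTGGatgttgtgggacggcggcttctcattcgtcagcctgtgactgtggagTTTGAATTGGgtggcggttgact
ESPL1: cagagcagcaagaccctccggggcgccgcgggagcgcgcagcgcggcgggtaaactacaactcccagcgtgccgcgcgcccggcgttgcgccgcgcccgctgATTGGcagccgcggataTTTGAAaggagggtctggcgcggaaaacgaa
In HMMR 2 CHR matches adjoin each other, and 2 CCAAT matches on opposite strands overlap, while in CDCA8 the CHR and a CCAAT match overlap. The CHR match began 28 bases before the start in KIF11, 29 in PLK1 and 31 in ESPL1. In the other stretches shown it began at 10 (KIF18A), 23 (CDCA8), 65 (CDC20), 113 (ASPM), and 28 and 22 (HMMR). By edgeR call without removal of the GC trend, 20 of 25 higher genes with an entry and 17 of 23 of the others held a CHR match. The motif was thus present in most genes of either kind. A match is a run of letters and not a shown binding site.

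Per length, the levels of the mitotic genes spanned a wide range in these cells. On the FPKM scale of the authors, the mean of the 3 controls was highest for PTTG1 (331), CDC20 (233) and CCNB1 (225) and lowest for KIF14 (3.36), KIF15 (3.92) and CENPE (4.64). Of the 8 genes above 100 FPKM in the controls (PTTG1, CDC20, CCNB1, TPX2, UBE2C, NCAPD2, AURKB and PLK1), TPX2 was the 1 called higher, against 13.3% of all genes tested. The call of TPX2 was lost in 4 fits that left out 1 sample. With the GC trend removed TPX2, CDC20 and PLK1 were called higher, against 10.5% of all genes.

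**Figure D3:**
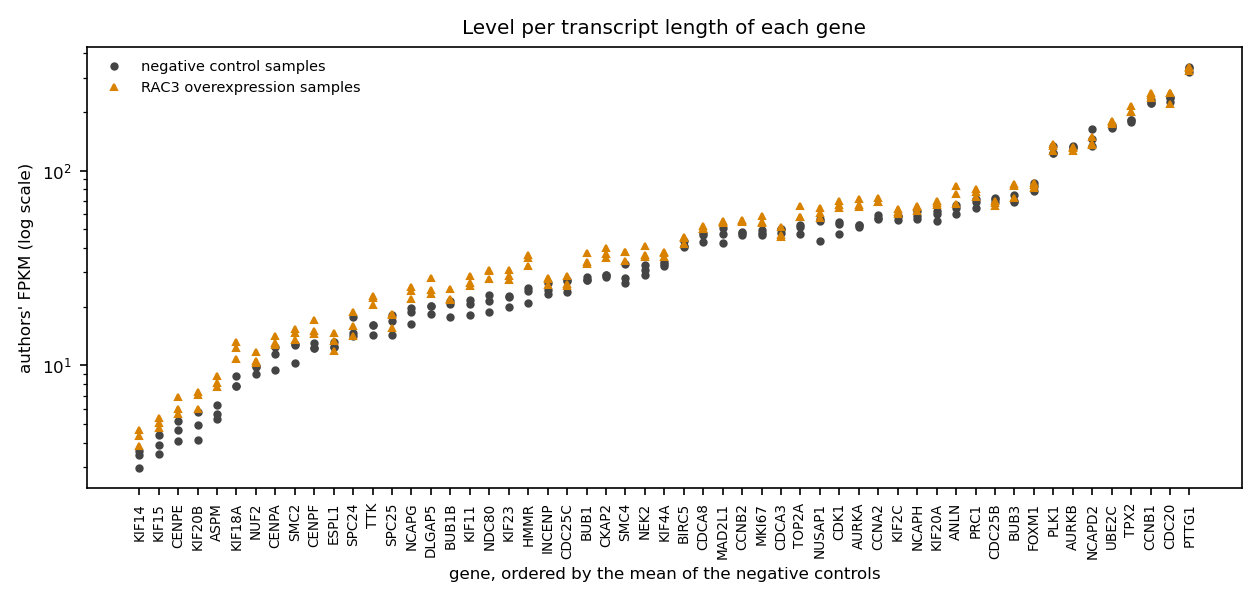
FPKM of the 55 mitotic genes on a log axis (y), ordered on the x axis by the mean of the negative controls, with 1 point for each of the 3 negative controls and 1 triangle for each of the 3 RAC3 samples. Levels run from KIF14 at the left to PTTG1 at the right, and the groups separate more clearly toward the left.

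Both markers of cycling cells were modestly higher. MKI67, which encodes the Ki-67 protein that coats mitotic chromosomes (ENSG00000148773, chromosome 10, 128096659 to 128126385), had 574, 612 and 581 normalised CPM in negative controls 1 to 3 and 678, 639 and 637 in RAC3 samples 1 to 3. TOP2A, the topoisomerase that untangles sister DNA before division (ENSG00000131747, chromosome 17, 40388516 to 40417950), had 277, 304 and 297 normalised CPM in the controls, against 367, 323 and 323 with RAC3. For each, the lowest RAC3 sample was above the highest control. MKI67 had a log2 fold change of 0.15 (SE 0.0407, adjusted p = 0.0116), and TOP2A one of 0.21 (SE 0.0516, adjusted p = 0.00549). MKI67 did not pass without negative control 3, at 0.13 (adjusted p = 0.0524), or once each library's trend with transcript length was removed, at 0.075 (adjusted p = 0.126). TOP2A did not pass once the GC trend was removed, at 0.068 (adjusted p = 0.238).

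Among the 11 genes of mitotic entry, 5 were higher (CDK1, AURKA, CCNA2, CCNB2 and NEK2), 1 was lower and 5 did not pass. Over all genes tested 13.3% were higher and 15.3% lower. Once the GC trend was removed 5 of the 11 were higher (CDK1, AURKA, CCNA2, PLK1 and FOXM1) and 0 lower, against 10.5% and 10.4% of all genes. CDK1, the kinase that starts mitosis (ENSG00000170312, chromosome 10, 60778331 to 60794852), had 90.4, 104 and 102 normalised CPM in the controls, against 122, 119.6 and 129 with RAC3. Every RAC3 sample was above every control, a log2 fold change of 0.32 (SE 0.0581, adjusted p = 4.6e-04). Its partners moved less: CCNA2, cyclin A2, had a log2 fold change of 0.23 (SE 0.0448, adjusted p = 9.5e-04), and CCNB2, a B-type cyclin, had 0.16 (SE 0.0531, adjusted p = 0.0288), a call that was lost when any 1 of the 6 samples was left out (adjusted p between 0.0519 and 0.089). CCNB1, the main mitotic cyclin (ENSG00000134057, chromosome 5, 69167010 to 69178245), had 332, 331 and 336 normalised CPM in the controls, against 358, 349 and 342 with RAC3. Its groups did not overlap, but the difference of 0.070 (SE 0.0395, adjusted p = 0.197) on the log2 scale did not pass.

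AURKA, the Aurora A kinase of centrosomes and spindle poles (ENSG00000087586, chromosome 20, 56369389 to 56392337), had 96.0, 95.8 and 95.6 normalised CPM in the controls, against 128, 118 and 118 with RAC3. The 3 controls lay close together and every RAC3 sample was above them, a log2 fold change of 0.34 (SE 0.0517, adjusted p = 7.3e-05). PLK1, the Polo-like kinase that acts from centrosome maturation to cytokinesis (ENSG00000166851, chromosome 16, 23677656 to 23690367), had 263, 242 and 243 normalised CPM in the controls, against 247, 257 and 251 with RAC3. FOXM1, the transcription factor that drives many of these genes in G2 (ENSG00000111206, chromosome 12, 2857681 to 2877155), had 277, 271 and 254 normalised CPM in the controls, against 265, 262 and 272 with RAC3. For both the groups overlapped, with log2 fold changes of 0.013 (SE 0.0448, adjusted p = 0.864) for PLK1 and -0.0030 (SE 0.0437, adjusted p = 0.967) for FOXM1. With the GC trend removed the values were 0.15 (adjusted p = 0.00508) for PLK1 and 0.11 (adjusted p = 0.0413) for FOXM1.

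CDC25B, a phosphatase that removes the inhibitory phosphates from CDK1 (ENSG00000101224, chromosome 20, 3786772 to 3806121), was the lower gene, with 222, 223 and 212 normalised CPM in the controls, against 193, 201 and 205 with RAC3. All RAC3 samples were below all controls, a log2 fold change of -0.13 (SE 0.0447, adjusted p = 0.0321), at 59.3% GC. It did not pass when any 1 sample other than negative control 3 was left out (adjusted p between 0.0545 and 0.116), and with the GC trend removed its log2 fold change was 0.028 (adjusted p = 0.649). Its paralog CDC25C had a log2 fold change of 0.021 (adjusted p = 0.852) and CDCA3, an adaptor for destruction of WEE1, one of -0.098 (adjusted p = 0.256). NEK2, a kinase that splits the centrosomes, had 0.24 (adjusted p = 0.00895), and without RAC3 sample 1 0.18 (adjusted p = 0.0592).

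Of the 5 spindle checkpoint genes 3 were higher, TTK, BUB1 and BUB3, against 13.3% of all genes tested. Once the GC trend was removed 2 were higher, TTK and BUB1, against 10.5% of all genes. TTK, the MPS1 kinase that starts checkpoint signalling at unattached kinetochores (ENSG00000112742, chromosome 6, 80003887 to 80042527), had 44.7, 46.8 and 44.7 normalised CPM in the controls, against 64.1, 58.2 and 64.8 with RAC3. Every RAC3 sample was well above every control, a log2 fold change of 0.46 (SE 0.0635, adjusted p = 2.9e-05). BUB1, the kinase that TTK recruits to kinetochores (ENSG00000169679, chromosome 2, 110637698 to 110678114), had 97.4, 92.7 and 104 normalised CPM in the controls, against 123, 112 and 117 with RAC3, again without overlap and with a log2 fold change of 0.26 (SE 0.0558, adjusted p = 0.00197). MAD2L1, the MAD2 protein that inhibits CDC20 (ENSG00000164109, chromosome 4, 120055608 to 120067074), had 112, 118 and 125 normalised CPM in the controls, against 136, 128 and 129 with RAC3. Its groups did not overlap either, yet the log2 fold change of 0.14 (SE 0.0526, adjusted p = 0.0504) just missed the threshold, and without negative control 3 it was 0.18 (adjusted p = 0.0284). Once the GC trend was removed it was 0.0079 (adjusted p = 0.924) and the groups overlapped. BUB3, the BUB1 partner, had 0.18 (adjusted p = 0.0194) and did not pass without negative control 1 or RAC3 sample 1 (adjusted p = 0.0933 and 0.0695) or with the length trend removed (adjusted p = 0.0673). Nor did BUB3 pass with the GC trend removed, at 0.069 (adjusted p = 0.321). BUB1B, the BUBR1 protein, had 0.16 (adjusted p = 0.0706).

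None of the 4 genes of the chromosomal passenger complex, which corrects wrong attachments and directs cytokinesis, was called by edgeR, DESeq2 or limma-voom, and at an unadjusted p below 0.05 there was 1, AURKB. AURKB, its Aurora B kinase (ENSG00000178999, chromosome 17, 8204733 to 8210600), had 159.8, 162 and 157 normalised CPM in the controls, against 145, 152 and 151 with RAC3. The RAC3 samples were all below the controls, with a log2 fold change of -0.10 (SE 0.0458, adjusted p = 0.111). At 55.6% GC this value was 0.013 once the GC trend was removed. The complex's scaffold INCENP had 0.084 (adjusted p = 0.266), borealin (CDCA8) 0.090 (adjusted p = 0.209) and survivin (BIRC5) 0.0084 (adjusted p = 0.924). With the GC trend removed INCENP and CDCA8 passed as higher, at 0.25 (adjusted p = 0.00168) and 0.14 (adjusted p = 0.0425), against 10.5% of all genes. Aurora A, by contrast, was higher whether or not the GC trend was removed (0.34 and 0.32), and a test between both kinases was not run.

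At the centromere and kinetochore 3 of 7 genes were higher, NDC80, CENPE and CENPF, against 13.3% of all genes tested. The same 3 were higher once the GC trend was removed, against 10.5% of all genes. NDC80, the subunit that binds the microtubule end (ENSG00000080986, chromosome 18, 2571511 to 2616635), had 40.1, 45.2 and 48.4 normalised CPM in the controls, against 63.0, 57.6 and 63.5 with RAC3. CENPE, the kinetochore kinesin that carries chromosomes to the spindle equator (ENSG00000138778, chromosome 4, 103105806 to 103198409), had 33.5, 38.6 and 37.3 normalised CPM in the controls, against 50.8, 48.6 and 47.8 with RAC3. Both were higher in every RAC3 sample than in any control, with log2 fold changes of 0.46 (SE 0.0715, adjusted p = 1.0e-04) for NDC80 and 0.43 (SE 0.0695, adjusted p = 1.6e-04) for CENPE. CENPF, a large kinetochore and nuclear matrix protein, had 0.26 (SE 0.0565, adjusted p = 0.00175). The partners of NDC80 in its 4-subunit complex did not pass, with log2 fold changes of 0.15 (adjusted p = 0.255) for NUF2, 0.15 (adjusted p = 0.278) for SPC24 and 0.017 (adjusted p = 0.918) for SPC25. These 3 had standard errors between 0.0936 and 0.101, against 0.0715 for NDC80, at control levels under 25 CPM. CENPA, the centromeric histone H3 variant, had 0.20 (adjusted p = 0.176).

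Kinesins, the motors that push spindle poles apart and move chromosomes, were higher in 6 of 9 cases, against 13.3% of all genes tested. For all 9 every RAC3 sample lay above every control, against 20.9% of all genes. Once the GC trend was removed 4 of 9 were higher, against 10.5% of all genes. KIF18A, which damps chromosome movement at the equator (ENSG00000121621, chromosome 11, 28020620 to 28108308), had 27.5, 30.5 and 27.3 normalised CPM in the controls, against 40.7, 36.3 and 44.1 with RAC3. KIF11, the Eg5 motor that separates the poles (ENSG00000138160, chromosome 10, 92593286 to 92655395), had 94.0, 110.3 and 105 normalised CPM in the controls, against 141, 126 and 130.2 with RAC3. KIF23, the MKLP1 motor of the midzone and midbody (ENSG00000137807, chromosome 15, 69414246 to 69448427), had 69.9, 77.8 and 77.8 normalised CPM in the controls, against 103, 91.7 and 95.8 with RAC3. These 3 had log2 fold changes of 0.50 (SE 0.0815, adjusted p = 1.5e-04), 0.36 (SE 0.0602, adjusted p = 1.9e-04) and 0.36 (SE 0.0603, adjusted p = 1.9e-04), and each passed in all leave-one-out fits and with the GC trend removed.

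The other 3 higher kinesins were less secure. KIF14, of the midbody, had 0.28 (adjusted p = 0.0278) and did not pass without negative control 1 or 3 or RAC3 sample 1 or 3 (adjusted p between 0.0601 and 0.15). KIF20A, the MKLP2 motor that brings Aurora B to the midzone, had 0.16 (adjusted p = 0.0164) and 0.12 (adjusted p = 0.0814) without negative control 1. KIF20B, a kinesin of late cytokinesis, had 0.34 (adjusted p = 0.00749) and 0.28 (adjusted p = 0.0547) without RAC3 sample 3. KIF2C, the MCAK microtubule depolymerase, had 0.075 (adjusted p = 0.245), the chromokinesin KIF4A 0.12 (adjusted p = 0.0694) and KIF15, which backs up KIF11, 0.24 (adjusted p = 0.0995).

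Spindle and midzone proteins that are not motors were higher in 7 of 8 cases, against 13.3% of all genes tested. Once the GC trend was removed 5 were higher (62.5%), against 10.5% of all genes. HMMR, a microtubule-associated protein of the spindle poles that is also a hyaluronan receptor (ENSG00000072571, chromosome 5, 163460203 to 163491945), had 63.7, 74.1 and 70.8 normalised CPM in the controls, against 104, 95.4 and 96.9 with RAC3. It had the smallest p of the 55 genes, with a log2 fold change of 0.50 (SE 0.0616, adjusted p = 7.4e-06). ASPM, which organises the spindle poles (ENSG00000066279, chromosome 1, 197084128 to 197146694), had 55.5, 63.1 and 57.4 normalised CPM in the controls, against 87.7, 78.5 and 81.7 with RAC3. CKAP2, which stabilises spindle microtubules (ENSG00000136108, chromosome 13, 52455429 to 52476628), had 88.3, 94.2 and 90.1 normalised CPM in the controls, against 124, 107 and 112 with RAC3. In both, no RAC3 sample reached down to the highest control, with log2 fold changes of 0.50 (SE 0.0633, adjusted p = 1.2e-05) for ASPM and 0.34 (SE 0.0585, adjusted p = 2.9e-04) for CKAP2.

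The further members of this group had smaller differences. DLGAP5, which stabilises kinetochore fibres, had a log2 fold change of 0.29 (adjusted p = 0.00438), ANLN, which ties actin and septins together at the cleavage furrow, 0.21 (adjusted p = 0.00426), and PRC1, which cross-links midzone microtubules, 0.18 (adjusted p = 0.00876). With the GC trend removed DLGAP5 (0.15, adjusted p = 0.0827) and ANLN (0.088, adjusted p = 0.147) did not pass, while PRC1 did. TPX2, the activator of Aurora A, had 0.12 (adjusted p = 0.0233) and did not pass without any 1 of negative controls 1, 2 and 3 and RAC3 sample 1 (adjusted p between 0.0565 and 0.0932). NUSAP1, a microtubule bundling protein, had 0.18 (adjusted p = 0.0783), with negative control 1 well below the other 2 controls at 99.5 CPM, and without negative control 2 0.24 (adjusted p = 0.0391) and with the GC trend removed 0.088 (adjusted p = 0.354).

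No difference was detected in the genes of the anaphase trigger. None of the 4 genes was called by edgeR, DESeq2 or limma-voom, none had an unadjusted p below 0.05 in edgeR, and in all 4 the groups overlapped. CDC20, which activates the anaphase-promoting complex (ENSG00000117399, chromosome 1, 43358955 to 43363203), had 406, 382 and 395 normalised CPM in the controls, against 356, 411 and 408 with RAC3. UBE2C, the ubiquitin-conjugating enzyme of that complex (ENSG00000175063, chromosome 20, 45812576 to 45816957), had 131, 135 and 131 normalised CPM in the controls, against 135, 135 and 130.4 with RAC3. PTTG1, the securin that holds separase back (ENSG00000164611, chromosome 5, 160421822 to 160428744), had 238, 246 and 247 normalised CPM in the controls, against 237, 242 and 230.4 with RAC3. The control and RAC3 values interleave in each, with log2 fold changes of -0.0099 (SE 0.0498, adjusted p = 0.904) for CDC20, 0.014 (SE 0.0470, adjusted p = 0.853) for UBE2C and -0.042 (SE 0.0423, adjusted p = 0.489) for PTTG1. ESPL1, separase itself, had -0.048 (SE 0.0577, adjusted p = 0.575). With the GC trend removed CDC20 passed as higher, at 0.13 (adjusted p = 0.0142).

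Condensin, the ring complex that compacts chromosomes, was split, with 3 of 5 genes higher, against 13.3% of all genes tested. Its core and one regulatory subunit were higher: NCAPG of condensin I (ENSG00000109805, chromosome 4, 17810902 to 17844862) had 70.2, 74.1 and 75.0 normalised CPM in the controls, against 109, 86.2 and 100.1 with RAC3, and SMC4 (ENSG00000113810, chromosome 3, 160399274 to 160434962) had 125, 138 and 134 normalised CPM in the controls, against 159, 149.7 and 154 with RAC3. For each, all RAC3 samples were above all controls, with log2 fold changes of 0.43 (SE 0.0705, adjusted p = 1.6e-04) for NCAPG and 0.22 (SE 0.0507, adjusted p = 0.00323) for SMC4. SMC2, the partner of SMC4, had 0.22 (adjusted p = 0.0342), with negative control 1 low at 56.4 CPM, and did not pass without negative control 1 or RAC3 sample 1 or 3 (adjusted p between 0.111 and 0.196). The other condensin I subunits NCAPH and NCAPD2 had 0.042 (adjusted p = 0.563) and -0.064 (adjusted p = 0.247). With the GC trend removed NCAPG alone of the 5 passed, as higher, against 10.5% of all genes. NCAPG was then at 0.29 (adjusted p = 0.00117) and SMC4 at 0.061 (adjusted p = 0.328).

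**Figure D4:**
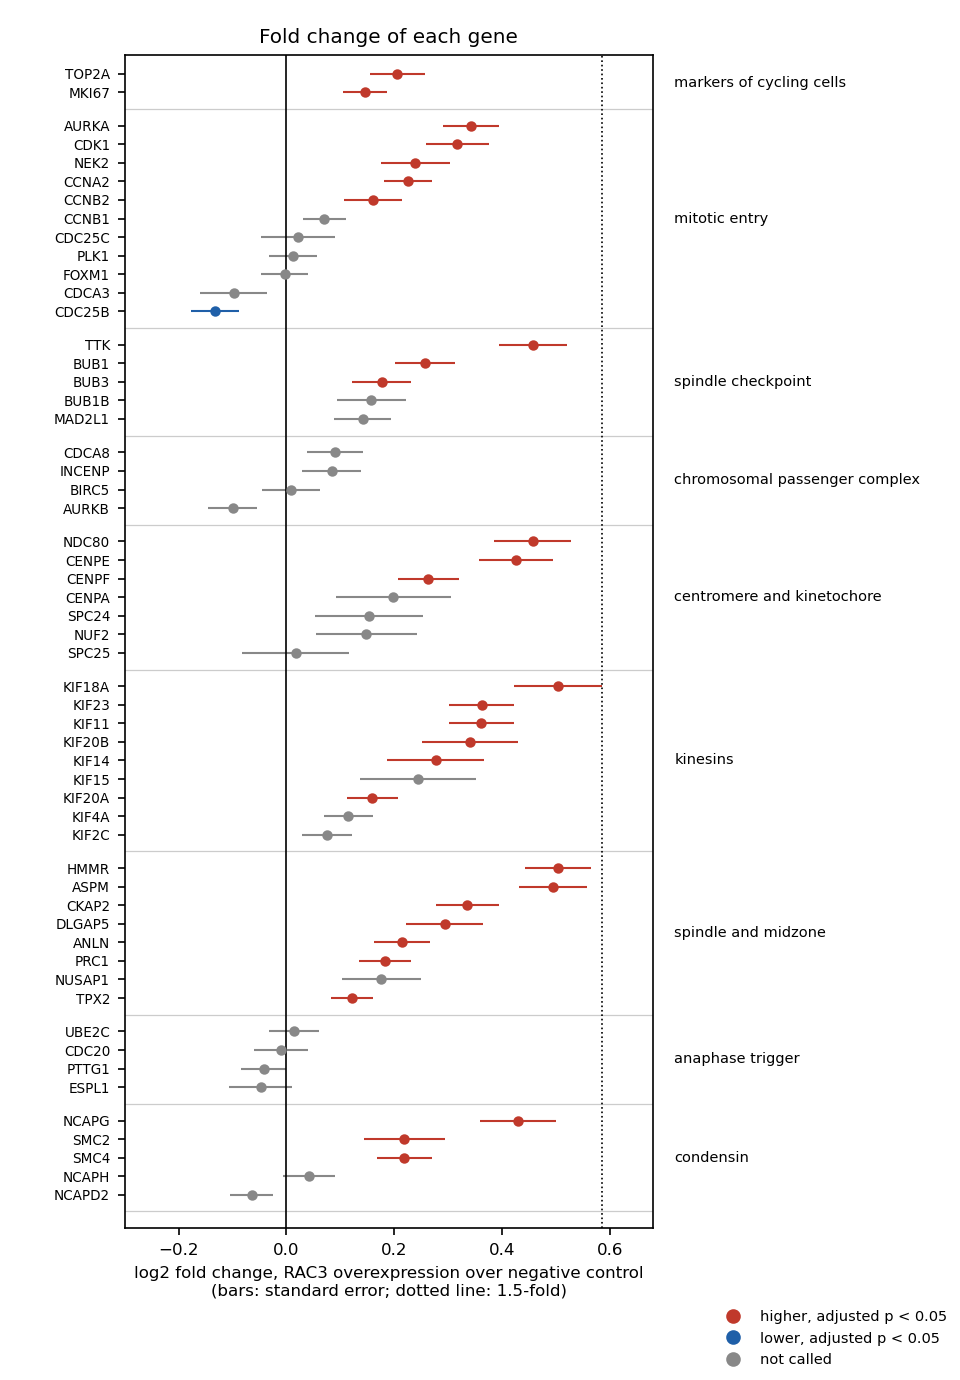
Log2 fold change, RAC3 overexpression over negative control, of each of the 55 mitotic genes by role. Points are edgeR estimates coloured by call, bars 1 standard error, and the dotted line a fold of 1.5. Kinesins, spindle and midzone genes lie to the right of 0 and anaphase trigger genes around it.

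Of the 29 higher genes, 20 passed in every fit that left out 1 sample, and 16 of these also passed with the GC trend removed. Leaving out a sample gave between 23 and 28 higher genes. With 3 samples against 3, an exact permutation test of a single gene cannot give a p below 0.1, so calls rest on the spread that edgeR shares across genes, and this spread is between RNA samples that the study calls independent.

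Mitotic genes outside the 55 were also higher more often than lower, in a list likewise written with earlier results of these data known. Of 76 further genes of mitosis, 31 were higher (40.8%) and 2 lower (2.63%), against 13.3% and 15.3% of all genes tested. Their median difference was 0.16 on the log2 scale, and with the GC trend removed 23 were higher (30.3%) and 1 lower (1.32%), against 10.5% and 10.4%. Without RAC3 sample 1 or RAC3 sample 3 the higher count was 20. The 3 higher genes with the smallest p were DEPDC1, a mitotic regulator, at 0.48 (adjusted p = 5.6e-05), CDCA2, a phosphatase targeting subunit on chromosomes, at 0.39 (adjusted p = 1.6e-04), and CEP55, an abscission protein, at 0.34 (adjusted p = 3.4e-04). The 2 lower genes were NCAPH2 of condensin II, at -0.17 (adjusted p = 0.0177), and MAD1L1, the MAD2 receptor, at -0.20 (adjusted p = 0.0449). NCAPH2 did not pass without RAC3 sample 1 (-0.11), nor MAD1L1 without negative control 1 (-0.12) or any RAC3 sample (-0.21 to -0.17). Both, above 62% GC, were above 0 with the GC trend removed, at 0.024 and 0.0020.

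Separation of the sister chromatids also involves the anaphase-promoting complex and cohesin. Among 16 subunits and co-factors of the anaphase-promoting complex, 3 were higher (18.8%, near the 13.3% of all genes) and 0 lower: CDC27 at 0.23 (adjusted p = 0.00541), ANAPC4 at 0.29 (adjusted p = 0.0251) and CDC23 at 0.17 (adjusted p = 0.0260), of which none passed with the GC trend removed (values between 0.063 and 0.13). ANAPC2 and FZR1 were then higher and ANAPC16 lower, at 0.22, 0.28 and -0.19, named after their values were seen. That was 12.5% higher and 6.25% lower of the 16, against 10.5% and 10.4% of all genes. ANAPC4 did not pass either without negative control 2 or 3 or RAC3 sample 1 (0.19 to 0.28), nor CDC23 without negative control 1 or 3 or RAC3 sample 1 or 2 (0.13 to 0.16). Among 13 genes of cohesin, the ring that holds sister chromatids together, 6 were higher (46.2%, against 13.3% of all genes) and 0 lower, and with the GC trend removed 5 were higher (38.5%, against 10.5%) and 0 lower. NIPBL, the cohesin loader, had 0.34 (adjusted p = 8.5e-05), WAPL, its release factor, 0.28 (adjusted p = 8.4e-04), and RAD21, the subunit that separase cuts, 0.20 (adjusted p = 0.00284). RAD21 did not pass with the GC trend removed, at 0.082 (adjusted p = 0.129).

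The regulators upstream of these genes moved in both directions. Of 40 tested, 5 were higher (12.5%) and 6 lower (15.0%), shares close to those of all genes. CCND1, the cyclin D1 of G1 phase, was lower in RAC3 cells, 433, 419 and 441 normalised CPM in the controls, against 315, 289 and 299.9 with RAC3, a log2 fold change of -0.52 (SE 0.0428, adjusted p = 7.1e-08) and -0.48 with the GC trend removed. CDK4, its kinase partner, had -0.19 (adjusted p = 0.00978) and did not pass with the GC trend removed or without RAC3 sample 1 (log2 fold changes of -0.11 and -0.13), while CDK6, the other partner, was higher at 0.35 (adjusted p = 2.6e-04). CCNE2, a G1/S cyclin, was higher at 0.65 (adjusted p = 0.00195), and so was the CDK4 inhibitor CDKN2B at 0.89 (adjusted p = 2.3e-05). E2F5, a repressive E2F, was lower at -0.53 (adjusted p = 4.9e-04).

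Known activators of late cell cycle promoters differed among themselves in call, and none of MYBL2, E2F1 and FOXM1 was above 0 as counted. MYBL2, the B-MYB protein that binds with the MuvB core, had 465, 447 and 461 normalised CPM in the controls, against 402, 427 and 436 with RAC3, a log2 fold change of -0.12 (SE 0.0414, adjusted p = 0.0387), which did not pass when any 1 sample other than RAC3 sample 3 was left out (between -0.14 and -0.084 on the log2 scale) and was 0.056 with the GC trend removed. E2F1 had -0.13 (adjusted p = 0.0585) and the cell cycle inhibitor CDKN1A -0.13 (adjusted p = 0.400), and with the GC trend removed 0.070 and 0.018. FOXM1, as above, differed by -0.0030, and by 0.11, a call as higher, with the GC trend removed. LIN9, a MuvB core subunit named after its values were seen, was higher at 0.31 (adjusted p = 0.00600) and at 0.20 (adjusted p = 0.049) with the GC trend removed. The other core genes LIN37, LIN52, LIN54 and RBBP4, also named after their values were seen, were not called (-0.036, 0.056, 0.18 and -0.090). With the GC trend removed RBBP4 was lower, at -0.19 (adjusted p = 0.00109), and LIN37, LIN52 and LIN54 were still not called.

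**Figure D5:**
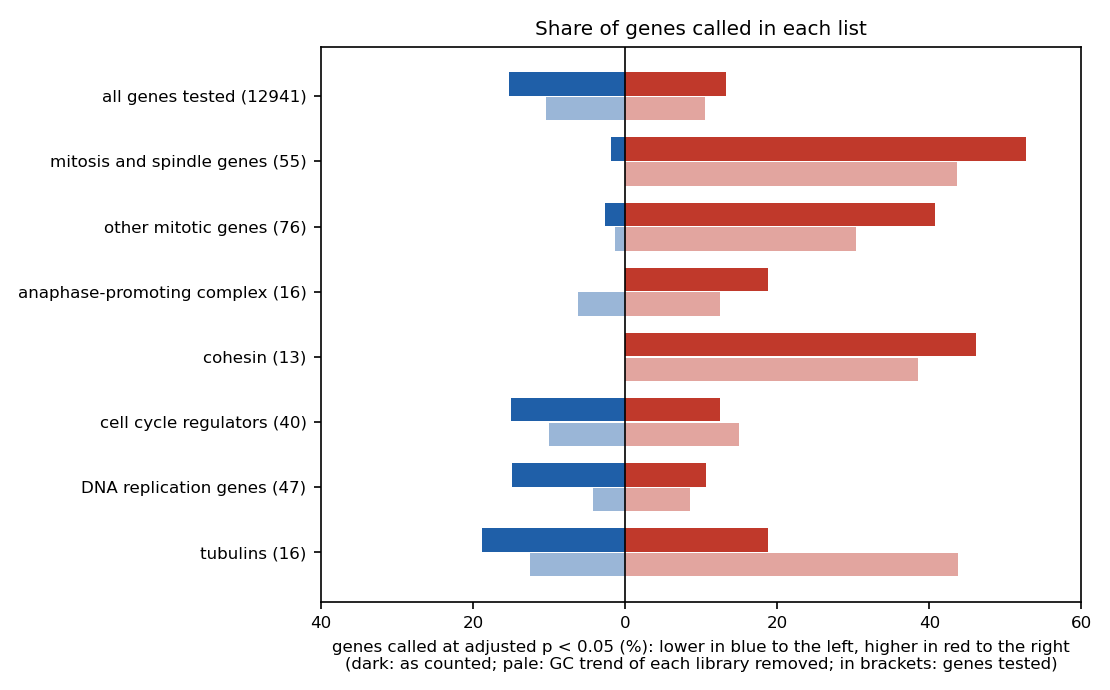
Percent of genes called higher and lower (adjusted p below 0.05, edgeR) among the 55 mitotic genes, the other gene lists and all genes tested, without and with the GC trend of each library removed. The mitotic genes stand at 52.7% and 43.6% higher, against 13.3% and 10.5% of all genes. The tubulin list includes genes of the gamma-tubulin complex.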

How the data were processed

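Poly(A)-selected RNA of 3 RAC3 overexpression and 3 negative control samples of Huh-7 cells was sequenced on an Illumina NovaSeq instrument. The deposited table gave, per gene, raw counts without normalization and FPKM values that the authors made from them, and the authors' group means of FPKM were not used. The submitters' processing notes name Bowtie2 2.2.8, HISAT2, StringTie 1.3.1 and DESeq2 without their roles, and the genome build and annotation are not given in the sources used here. Strand was not stated, so reads of genes that overlap on opposite strands cannot be told apart. Samples were grouped by title.

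The counts were tested with edgeR 4.0.16 (R 4.3.3): filterByExpr kept 12941 of 20332 genes, TMM scaled the libraries, and the two-sided quasi-likelihood F test compared the groups with no covariate. P-values were adjusted by the Benjamini-Hochberg method over all tested genes, and calls were made at 0.05. Levels are TMM-normalised CPM, and SE is the standard error of the log2 fold change. FPKM values were used only to order levels between genes. The biological coefficient of variation was 0.0533. Gene positions, GC content and length came from the longest transcript of each gene in GENCODE release 29 (GRCh38), which 78 tested genes lack. GC trends were removed per library by lowess with a span of 0.3 on log2 CPM with a prior count of 0.5. The scripts were tested on simulated data. DESeq2 1.42.0, limma 3.58.1 (voom), other scalings and filters, a replicate term and leaving out each sample were the alternatives.

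The mitotic genes and the other lists, written from general knowledge, were chosen with earlier results of these data known. Genes named in full were the 12 higher and 12 lower with the smallest p among those called, and 18 landmark genes whatever their values. From each other list at most 3 genes in each direction were named, plus E2F1, MYBL2, CDKN1A and CCND1. Genes said to be named after their values were seen came in addition. A further gene list and 1 marker gene are not reported here.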

Additional observations from a re-analysis of the deposited data

How the results depend on the processing

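The count of higher mitotic genes, 29, was 30 with DESeq2 size factors, 37 with library size alone and between 23 and 28 when 1 sample was left out. The count of lower genes, 1, was 0 with library size alone, the replicate block, the GC trend removed, or the GC and length trends removed together (chosen after the data were seen), and between 0 and 1 when 1 sample was left out. The count past a fold of 1.5, 0, was 16 at a fold of 1.2 and 0 in every other setting run. The median log2 fold change of 0.18 was 0.23 with library size alone, a scaling that moved the median of all genes by 0.056 and the shares called higher and lower over all genes to 20.2% and 10.7%. It was 0.13 with the GC trend removed and between 0.12 and 0.20 without 1 sample, lowest without negative control 1. The 76 other mitotic genes had between 20 and 28 higher without 1 sample, against 31. Their count of lower genes, 2, was 0 with library size alone or the length trend removed, 1 with DESeq2's Wald test, limma-voom, the replicate block, the GC trend removed or both trends removed, and between 0 and 2 without 1 sample. The cause was not tested.

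Log2 fold changes turned sign with the GC trend removed for CCNB1 (-0.010), CDC25B (0.028), FOXM1 (0.11), AURKB (0.013), SPC25 (-0.11), CDC20 (0.13), ESPL1 (0.084), NCAPD2 (0.0044), NCAPH2 (0.024), MAD1L1 (0.0020), E2F1 (0.070), MYBL2 (0.056) and CDKN1A (0.018). Those of LIN37 (0.12) and LIN52 (-0.017) turned as well. With library size alone they turned for FOXM1 (0.054), CDC20 (0.046), PTTG1 (0.014) and ESPL1 (0.0084), and with the length trend removed for FOXM1 (0.0069), CDC20 (0.050) and PTTG1 (0.033). Without 1 sample they turned for CDC25C (-0.037 to 0.061), PLK1 (-0.013 to 0.049), FOXM1 (-0.044 to 0.019), BIRC5 (-0.023 to 0.053), SPC25 (-0.068 to 0.099) and CDC20 (-0.046 to 0.054).

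No effect shared by same-numbered samples was seen: their deviations correlated at -0.094, -0.049 and -0.023 over 11221 genes. With 3 samples per group this cannot show whether such samples were prepared together. With the replicate block 27 mitotic genes were higher, and CCNB2, TPX2 and CDC25B were not called. Each mitotic gene had 187 counts or more in each sample, and standard errors were widest, up to 0.108 for KIF15, for genes under 25 CPM.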

Other observations

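Of 47 DNA replication genes, which act in S phase, 5 were higher (10.6%) and 7 lower (14.9%), close to the 13.3% and 15.3% of all genes tested, with a median log2 fold change of 0.019. With the GC trend removed 4 were higher (8.51%) and 2 lower (4.26%), CDT1 and MCM7, against 10.5% and 10.4% of all genes. CDT1, which loads the replicative helicase, was lower at -0.49 (adjusted p = 1.2e-06), as were the helicase subunits MCM7 at -0.25 (adjusted p = 3.5e-05) and MCM2 at -0.19 (adjusted p = 0.00265), the last of which did not pass with the GC trend removed (-0.038). CLSPN, a replication checkpoint mediator, was higher at 0.34 (adjusted p = 7.6e-04), DBF4, the activator of the CDC7 kinase, at 0.34 (adjusted p = 6.4e-04), and GINS4, a helicase co-factor, at 0.21 (adjusted p = 0.0105), which did not pass without RAC3 sample 3 (0.19).

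Of 16 genes of tubulins and the gamma-tubulin complex, 3 were higher (18.8%) and 3 lower (18.8%), near the 13.3% and 15.3% of all genes tested. With the GC trend removed these counts were 7 (43.8%) and 2 (12.5%), against 10.5% and 10.4% of all genes. TUBGCP2, TUBGCP3 and TUBGCP6, which encode proteins of the gamma-tubulin complex and not tubulins, were among the 7. TUBB2B was lower at -0.46 (adjusted p = 1.4e-06), TUBB at -0.23 (adjusted p = 6.9e-05) and TUBG1 at -0.15 (adjusted p = 0.0478), while TUBA1A was higher at 0.19 (adjusted p = 0.0166), TUBGCP3 at 0.22 (adjusted p = 0.0183) and TUBB6 at 0.13 (adjusted p = 0.0489). Many tubulin genes, unlike the TUBGCP genes, are near copies of one another, so their reads may be shared. TUBG1 and TUBB6 did not pass in 5 of 6 fits that left out a sample (TUBG1 -0.17 to -0.100 and TUBB6 0.10 to 0.14), TUBA1A not without negative control 2 or RAC3 sample 2 (0.19 and 0.15) and TUBGCP3 not without negative control 2 or RAC3 sample 3 (0.21 and 0.20). With the GC trend removed TUBG1 did not pass, at -0.0080 (adjusted p = 0.931), and TUBB6 was higher at 0.31 (adjusted p = 3.9e-05). TUBB2B, TUBB, TUBA1A and TUBGCP3 were then still called in the same direction.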
